A study of Mus musculus with 6 samples.

Results

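Ribosomal proteins of the cytosolic ribosome, together with the paralogues that replace some of them in particular tissues, were examined in adult mouse testis with and without a transgene for the calcium sensor DREAM. The set was a fixed list of 39 genes: 34 widely expressed ribosomal protein genes and the 5 paralogues Rpl3l, Rpl10l, Rpl22l1, Rps27l and Rpl39l. A gene was read from probe sets (groups of short oligonucleotides on the array) annotated to that gene alone, and 29 of the 39 genes had at least 1, among 18161 genes measured this way in all. Where a gene had several, the one with the highest mean over all 6 arrays gave its value. RNA came from freshly dissected testes of adult mice of a C57BL/6 x CBA hybrid background. The 3 wild-type samples were set against 3 samples from mice with a constitutively active mutant of DREAM, each sample on 1 Affymetrix whole-genome mouse array and described by the submitters as an independent biological replicate. DREAM, encoded by Kcnip3, binds calcium and represses transcription when free of it. The promoter that drives the transgene and the number of mice behind each sample are not given in the sources used here.

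Each ribosome consists of a small subunit, which decodes the mRNA, and a large subunit, which joins the amino acids and holds the tunnel through which the new chain leaves. The mRNAs of its proteins are among the most abundant in a cell, and most begin with a pyrimidine-rich 5′ terminal tract (TOP) that lets their translation be switched together. In male germ cells the X chromosome is silenced during meiosis. Rpl10 and Rpl39 lie on the X chromosome in the RefSeq table used here (assembly GRCm38.p6), and their copies Rpl10l and Rpl39l, on chromosomes 12 and 16, are known for expression in male germ cells. Rpl3l is known from heart and skeletal muscle, and Rpl22l1 and Rps27l are expressed in many tissues beside Rpl22 and Rps27.

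The 10 listed genes without a probe set of their own were Rpl3, Rpl5, Rpl10, Rpl10l, Rpl13, Rpl15, Rpl18, Rpl24, Rpl28 and Rpl29. For 8 of them a probe set existed that the annotation also assigns to another gene, mostly a pseudogene, and for Rpl10l and Rpl18 none was found under any name. The Rpl3 and Rpl10 pairs could therefore not be compared, and 3 of the 5 pairs remained: Rpl22l1 with Rpl22, Rps27l with Rps27, and Rpl39l with Rpl39. Of the 56 probe sets that carried a member alone, 36 were of the types named _x_at, _s_at or _a_at, which can match several related transcripts, and so were those of 17 of the 29 genes. Ribosomal protein genes have many processed pseudogenes, so such readings may combine transcripts.

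The values are log2 intensities from RMA, a method that corrects background, brings the arrays to a common distribution and summarises each probe set. They carry no detection call, and 3 arrays per group limit their precision. The array medians lay between 5.99 and 6.08. On the first principal component (38.9% of the variance) wild type replicate 2 stood apart at 42.2, with the other 5 arrays between -23.3 and 5.27, and the results below are given without it where it matters. The tissue label was borne by its markers: the mean level of 10 elongating spermatid genes ran from 13.26 to 13.31 in wild type and from 13.31 to 13.36 in transgenic testis. Kcnip3 itself read 7.21 ± 0.11 and 7.27 ± 0.11 (log2, SD, n = 3 each; limma adjusted p = 0.974), and whether its probe sets match the transgene is not known here.

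Ribosomal protein transcripts did not differ detectably between the genotypes. Of the 29 genes, 0 passed an adjusted p of 0.05 (limma, Benjamini-Hochberg over 45037 probe sets), where 0.617% of all genes passed, and 1, Rpl39, had an unadjusted p under 0.05, where 7.49% of all genes did. The differences, transgenic minus wild type, were above 0 in 13 genes, below 0 in 15 and 0 in 1, and over all genes 56.8% were above 0. Their median was -0.01, beside 0.02 over all genes, and they ran from -0.20 (Rps25) to 0.23 (Rpl39). The 95% intervals of the 29 differences lay between -0.44 and 0.45, so changes beyond 1.37-fold in either direction were outside each gene's interval. The median size of a difference, sign aside, was 0.06, against 0.08 over all genes. In 4 genes the groups did not overlap, 3 higher (Rpl39, Rps27l and Rplp0) and 1 lower (Rps15), and over all genes 12.5% had groups that did not overlap.

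**Figure D1:**
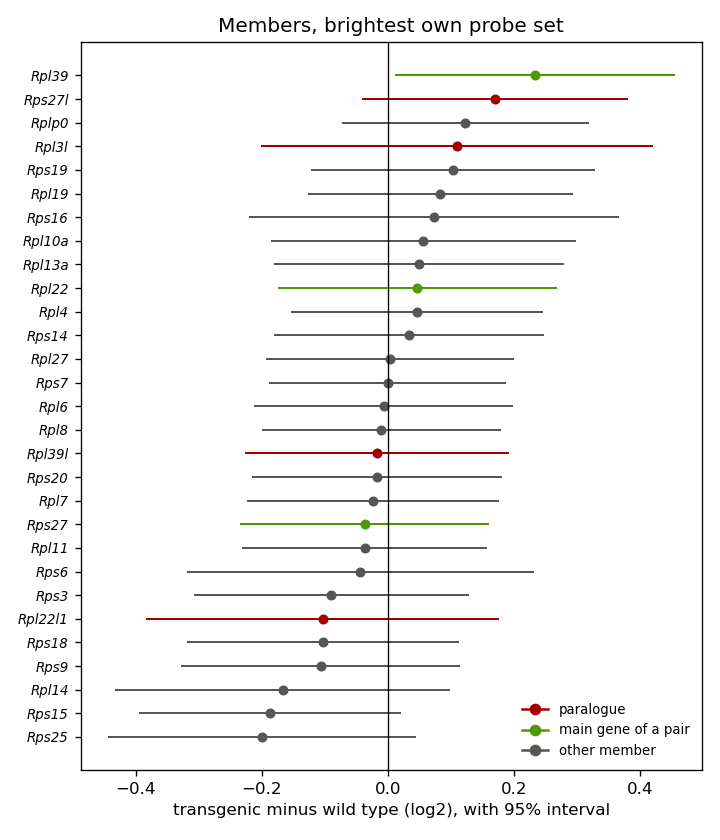
Differences of the 29 genes on the log2 scale (x axis), transgenic minus wild type, from the brightest probe set of each gene. Points are means of 3 against 3 arrays and lines are 95% intervals from limma. Rpl39 (0.23) and Rps27l (0.17) are at the top and Rps25 (-0.20) is at the bottom, and the interval of Rpl39 alone, from 0.01 to 0.45, leaves out 0.

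Rpl39 and Rpl39l encode one of the smallest proteins of the large subunit, a short chain set in the wall of the exit tunnel. Rpl39 read 8.14, 7.93 and 8.05 in wild type and 8.25, 8.38 and 8.19 on the transgenic arrays (log2). Every transgenic array was above every wild-type array, the nearest values being 8.19 and 8.14. The difference was 0.23 (SE 0.10, unadjusted p = 0.0405, limma adjusted p = 0.72), which did not pass. Rpl39l read 12.16, 12.31 and 12.37 in wild type and 12.30, 12.26 and 12.23 in transgenic testis. Its groups overlapped throughout, and the difference was -0.02 (SE 0.09, adjusted p = 0.993). Each gene had 1 probe set of its own, named _at for both, and another that includes Rpl39 is shared with a second gene.

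The rule of comparing a paralogue with its main gene was applied within each array, as the log2 reading of the paralogue minus that of the main gene. Since each probe set has its own affinity, the size of such a difference on 1 array says nothing of the amounts of the transcripts, and its change between genotypes was compared instead. For Rpl39l minus Rpl39 the values were 4.02, 4.38 and 4.32 in wild type and 4.05, 3.88 and 4.04 in transgenic testis. The change from wild type to transgenic was -0.25 (SE 0.12; exact permutation test, two-sided, p = 0.3), and wild type replicate 1, at 4.02, lay among the transgenic values. With 3 arrays against 3 this test cannot give a p under 0.1. Leaving out 1 array at a time moved the difference between -0.36 (without wild type replicate 1) and -0.18 (without wild type replicate 2). Rpl39l is a germ cell gene, and the 12 meiotic spermatocyte markers read lower in transgenic testis in 11 cases, with a mean level of 9.51 to 9.60 in wild type and 9.32 to 9.40 in transgenic testis. None of those meiotic markers passed the test, and the median of their list was -0.13. The spermatogonial, round spermatid and elongating spermatid lists had medians of 0.04, -0.025 and 0.003. Rpl39l itself differed by -0.02 and Rpl39 by 0.23. The part of any of these markers in the reading of Rpl39l was not tested. In bulk tissue, fewer cells of a type and less RNA per cell cannot be told apart.

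The start regions of the pair are shown because the comparison sets an X-linked gene against its autosomal copy. They run from 80 bases before to 20 after the RefSeq start, on the strand of the gene, in GRCm38.p6. Capitals mark the letters CTTTC on the strand of the gene within 50 bases on either side of the start. They also mark matches on either strand to CCATNTT (the letters of YY1) or CCGGAAG (GABP). A CTTTC match before the start is not in an mRNA that begins there, so a match is not taken as a TOP tract. Other pyrimidine runs were not searched.
Rpl39, chrX:37085203-37085302, minus strand: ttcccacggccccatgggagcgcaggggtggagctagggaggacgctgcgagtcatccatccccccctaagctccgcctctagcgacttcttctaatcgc
Rpl39l, chr16:10170148-10170247, plus strand: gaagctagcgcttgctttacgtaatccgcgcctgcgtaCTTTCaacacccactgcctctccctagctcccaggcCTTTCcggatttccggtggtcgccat
Within the printed bases Rpl39l has 2 of the CTTTC matches, both before the RefSeq start, and Rpl39 has 0. In its whole window of 300 bases Rpl39 has 1 match to CTTTC near the start and 1 to CCGGAAG, both outside the printed stretch. That of Rpl39l has 2 to CCGGAAG, likewise outside it.

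Rpl22 and Rpl22l1 encode closely related proteins of the large subunit that bind RNA and are not needed for the core of the ribosome. Rpl22 read 11.22, 11.30 and 11.26 in wild type and 11.29, 11.45 and 11.18 in transgenic testis, with overlapping groups and a difference of 0.05 (SE 0.10, adjusted p = 0.98). Its other probe sets read 0.01 and -0.11 (adjusted p = 0.993 and 0.965). Rpl22l1 read 10.73, 10.99 and 10.88 in wild type and 10.78, 10.96 and 10.55 in transgenic testis. The groups overlapped here too, and the difference was -0.10 (SE 0.12, adjusted p = 0.965). Within arrays, Rpl22l1 minus Rpl22 was -0.49, -0.31 and -0.38 in wild type, against -0.51, -0.49 and -0.63 with the transgene. The groups touched at -0.49, and the change was -0.15 (SE 0.07, exact permutation p = 0.2, two-sided). Against the other probe sets of Rpl22 the change was -0.12 and 0.003, so it was not the same over the 3 choices of probe set.

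Rps27 and its paralogue Rps27l encode zinc-binding proteins of the small subunit, and Rps27l is known as a gene induced by p53. Rps27 read 6.89, 6.87 and 6.89 in wild type and 6.92, 6.86 and 6.76 in transgenic testis, a difference of -0.04 (SE 0.09, adjusted p = 0.983). Rps27l read 10.42, 10.57 and 10.57 in wild type and 10.62, 10.67 and 10.78 in transgenic testis. Every transgenic value of Rps27l was above every wild-type value, while those of Rps27 overlapped. The difference of Rps27l was 0.17 (SE 0.09, adjusted p = 0.836) and did not pass. Its other probe sets differed by 0.05 each (adjusted p = 0.973 and 0.98), 1 of them again without overlap. Within arrays, Rps27l minus Rps27 was 3.53, 3.70 and 3.68 in wild type, against 3.70, 3.81 and 4.02 with the transgene, a change of 0.21 (SE 0.11, exact permutation p = 0.2, two-sided). The lowest transgenic and the highest wild-type array had the same value, 3.70. The change was 0.09 with either of the other probe sets of Rps27l, and it lay between 0.10 (without transgenic replicate 3) and 0.28 (without transgenic replicate 1) when 1 array was left out. The main Rps27 probe set reads low, and a further one is shared with another gene.

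**Figure D2:**
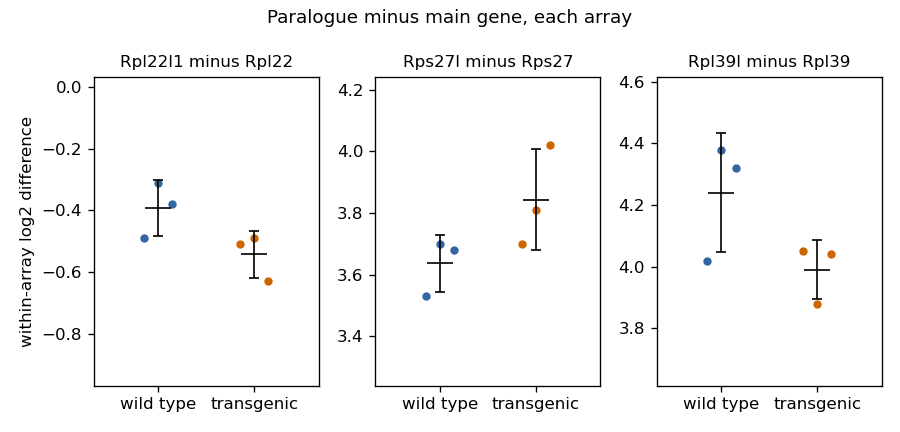
Paralogue minus main gene within each array (y axis, log2), for the 3 measured pairs. Points are arrays, and the bar and whiskers give the mean and SD of 3 arrays. The means went from -0.39 to -0.54 for Rpl22l1, from 3.64 to 3.84 for Rps27l and from 4.24 to 3.99 for Rpl39l, and in each pair the groups touched or overlapped.

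The start regions of these pairs are given the same way, to be set beside those of the Rpl39 pair. Where RefSeq lists several starts, the most upstream is shown.
Rpl22, chr4:152324356-152324455, plus strand: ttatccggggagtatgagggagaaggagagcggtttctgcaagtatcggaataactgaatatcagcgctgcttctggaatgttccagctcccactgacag
Rpl22l1, chr3:28805428-28805527, plus strand: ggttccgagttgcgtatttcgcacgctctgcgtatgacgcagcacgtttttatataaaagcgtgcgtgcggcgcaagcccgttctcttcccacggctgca
Rps27, chr3:90213629-90213728, minus strand: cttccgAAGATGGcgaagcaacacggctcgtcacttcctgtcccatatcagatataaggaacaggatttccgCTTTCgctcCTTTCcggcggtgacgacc
Rps27l, chr9:66946006-66946105, plus strand: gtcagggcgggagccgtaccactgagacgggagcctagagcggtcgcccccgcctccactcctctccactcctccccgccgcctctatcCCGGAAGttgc
Rps27 has 2 CTTTC matches, lying on either side of its start, and Rps27l has 0. Rps27l has a CCGGAAG match, and Rps27 a CCATNTT match on the other strand.

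Rpl3l read 5.32, 4.89 and 5.13 in wild type and 5.0, 5.31 and 5.36 in transgenic testis, a difference of 0.11 (SE 0.14, adjusted p = 0.965). The groups overlapped. These readings are near the low end of the members and are not shown to lie above background, and no main gene was measured beside it.

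**Figure D3:**
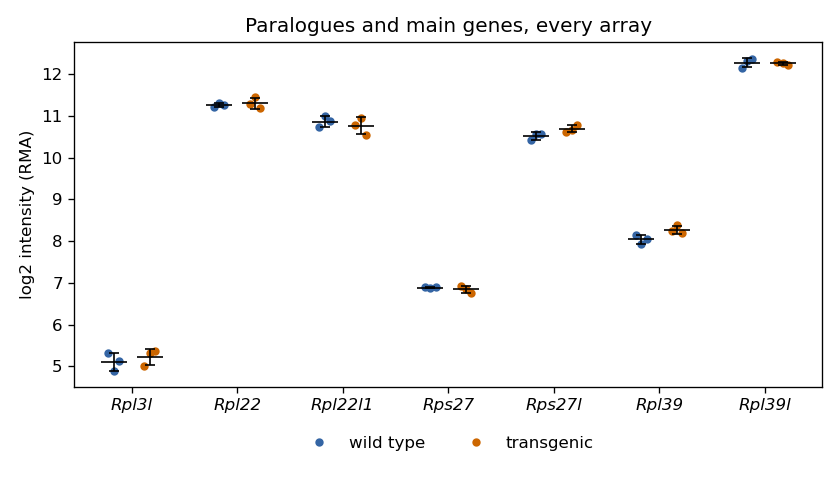
Log2 intensity (y axis) of the paralogues and main genes that had a probe set of their own, on every array. Points are arrays, and bars and whiskers give the mean and SD of 3 arrays. Heights of different genes cannot be compared, since each probe set has its own affinity, while within each gene the genotypes lie close together, farthest apart in Rpl39 (8.04 and 8.27).

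Outside the pairs, 11 genes of the large subunit were measured, with differences from -0.17 to 0.12 and a median of 0.003. Rplp0, the base of the stalk that recruits translation factors, read 12.43, 12.53 and 12.53 in wild type and 12.62, 12.67 and 12.57 in transgenic testis. The groups did not overlap, and the difference was 0.12 (SE 0.09, adjusted p = 0.908). Rpl11, which with Rpl5 carries the 5S RNA and can bind Mdm2, read -0.04, a difference that did not pass (adjusted p = 0.982). Rpl4, whose protein reaches into the exit tunnel, differed by 0.05 and Rpl8, close to the peptidyl transferase centre, by -0.01 (adjusted p = 0.978 and 0.994). Rpl10a and Rpl19 differed by 0.06 and 0.08, and Rpl13a, also known for a role in silencing inflammatory mRNAs, by 0.05 (adjusted p = 0.978, 0.961 and 0.98). Rpl6, Rpl7 and Rpl27 lay within 0.03 of 0 (adjusted p = 0.995, 0.989 and 0.995). Rpl14 had the lowest value of these, -0.17 (adjusted p = 0.909), from a dim probe set at 5.22 ± 0.14 and 5.05 ± 0.17 (log2, SD, n = 3), while 5 further probe sets of Rpl14 are shared with a pseudogene.

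The small subunit outside the pair had 11 measured genes, with differences from -0.20 to 0.10 and a median of -0.04. Rps15, a protein of the subunit's head near the decoding site, read 11.56, 11.63 and 11.61 in wild type and 11.38, 11.53 and 11.33 in transgenic testis. All transgenic arrays were below all wild-type arrays, the difference was -0.19 (SE 0.09, adjusted p = 0.793), and its other probe set read -0.14 (adjusted p = 0.925). Rps25, known for its part in initiation at internal ribosome entry sites, read 8.76, 9.11 and 8.86 in wild type and 8.76, 8.68 and 8.69 in transgenic testis. Its groups met at 8.76, wild type replicate 2 was the highest array, and the difference of -0.20 (SE 0.11, adjusted p = 0.83) became -0.10 without that array. Rps19, mutated in Diamond-Blackfan anaemia, read 0.10 and Rps14, lost in the human 5q- syndrome, 0.03 (adjusted p = 0.947 and 0.986). Rps18 and Rps9 differed by -0.10 and -0.11, and Rps3, at the mRNA entry channel, by -0.09 (adjusted p = 0.942, 0.942 and 0.959). Rps20 read -0.02 (adjusted p = 0.993), and Rps7 had the same mean in both genotypes, 12.92 (SD 0.03 each). Rps6, the substrate of S6 kinase, differed by -0.04 at the low readings of 5.94 ± 0.23 and 5.90 ± 0.06 (adjusted p = 0.986), and Rps16 by 0.07 at 4.01 ± 0.25 and 4.09 ± 0.08 (adjusted p = 0.978). For Rps6 and Rps16, 9 and 2 further probe sets are shared with other genes, so the dim ones used here may not stand for the main transcript.

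The members fell into 22 genes with a mean of at least 10 on the log2 scale, 2 between and 5 under 7. The 22 bright genes differed by -0.19 to 0.17 between genotypes. Rpl3l, Rpl14, Rps6, Rps16 and Rps27 made up the dim group, with differences from -0.17 to 0.11.

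Among the 27 probe sets of members other than the brightest of each gene, the differences were wider, from -0.14 to 0.62, and 0 passed the test. Over all 56, 4 had an unadjusted p under 0.05, where 6.69% of all probe sets did, and 0 an adjusted p under 0.05, where 0.444% did. In 7 of the 56 the groups did not overlap, 6 higher and 1 lower, and over all probe sets 11.3% did not. The highest difference belonged to a dim probe set of Rps3, with 4.38, 5.17 and 4.78 in wild type and 5.52, 5.54 and 5.14 in transgenic testis (0.62, SE 0.19, adjusted p = 0.422). Transgenic replicate 3, at 5.14, was below wild type replicate 2, at 5.17. Without wild type replicate 2 that probe set of Rps3 differed by 0.82 and passed (adjusted p = 0.0393), and without wild type replicate 1 it differed by 0.425 (adjusted p = 0.558). The other dim probe set of Rps3 read 0.30 (adjusted p = 0.608), while the brightest read -0.09. With the Gapdh 3′ minus 5′ measure described below as a covariate, the dim probe sets of Rps3 read 1.44 and -0.01 (adjusted p = 0.115 and 0.99).

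A probe set of Rps9 of the _x_at type, singled out after its values were seen, read 7.83, 8.47 and 8.29 in wild type and 8.99, 8.68 and 8.64 in transgenic testis. All transgenic arrays were higher, the difference was 0.57 (SE 0.17, adjusted p = 0.366), and without wild type replicate 2 it was 0.71 (adjusted p = 0.0735). It was 0.39 without wild type replicate 1 (adjusted p = 0.498) and 1.24 with the Gapdh covariate (adjusted p = 0.16). The brightest probe set of Rps9 read -0.11 and the third 0.12. Of 13 genes with several probe sets, 8 had differences of both signs. The 44 probe sets shared between a member and another gene had a median difference of 0.02 and ranged from -0.39 to 0.17. Of these, 0 passed (smallest limma adjusted p = 0.57) and 2 had an unadjusted p under 0.05.

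**Figure D4:**
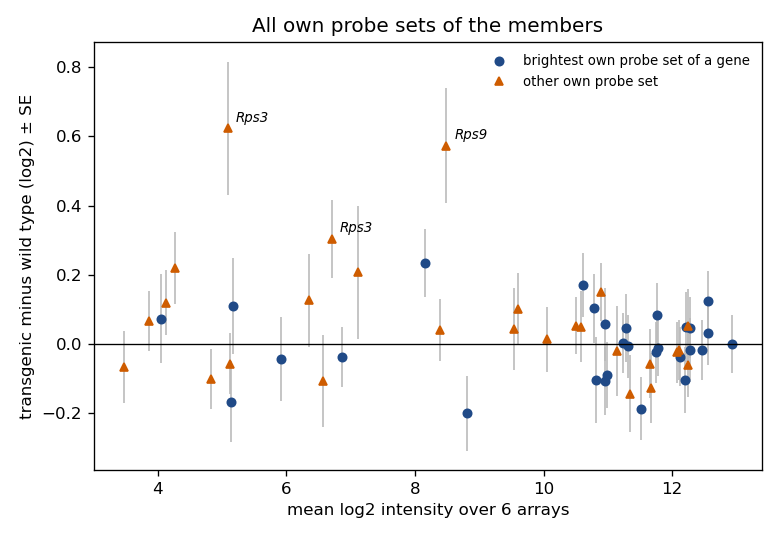
Mean log2 intensity over 6 arrays (x axis) against the difference transgenic minus wild type (y axis, log2, with SE) for the 56 probe sets of the members. Circles are the brightest of each gene and triangles the others. The probe sets of Rps3 (0.62 and 0.30) and Rps9 (0.57) are the highest, and those with a mean above 10 stay between -0.19 and 0.17.

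The readings of the members also depended on the array. Wild type replicate 1 gave the lowest reading of 15 of the 29 genes and wild type replicate 2 the highest of 10. The median deviation from each gene's own mean was -0.06 on wild type replicate 1, 0.04 on wild type replicate 2 and -0.04 on transgenic replicate 3, and between 0.002 and 0.02 on the others. The same arrays were the extremes of the first principal component, wild type replicate 1 at -23.3 and replicate 2 at 42.2. Without wild type replicate 1 the median difference of the members was -0.02 and without replicate 2 it was 0.02, with 0 genes passing in either case.

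**Figure D5:**
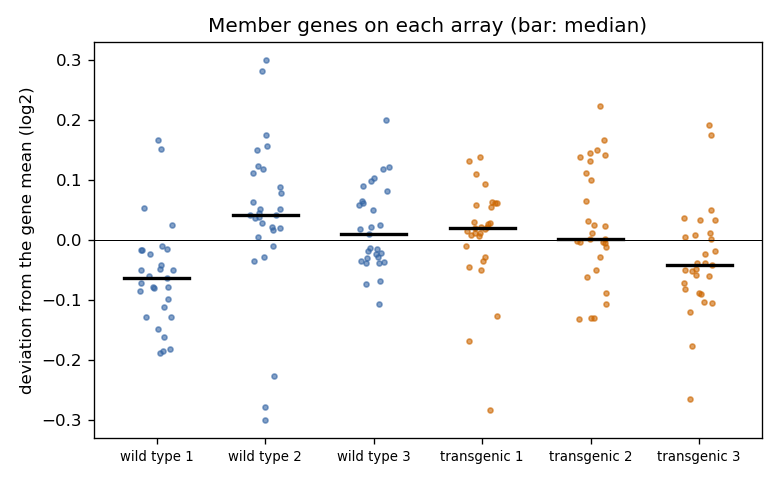
Deviation of each of the 29 genes from its own mean over 6 arrays (y axis, log2) on each array. Points are genes, and the bar is their median. The median is lowest on wild type replicate 1 (-0.06) and highest on wild type replicate 2 (0.04), both of the same genotype.

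A measure of RNA integrity lay apart between the genotypes for Gapdh and overlapped for actin. The 3′ minus 5′ difference of the Gapdh control probe sets, which rises as RNA is degraded, was 0.11 ± 0.05 on the wild-type and 0.27 ± 0.06 on the transgenic arrays (log2, SD, n = 3; exact permutation p = 0.1, the smallest possible). The same measure from the actin control probe sets was 0.50, 0.41 and 0.50 on the wild-type and 0.53, 0.47 and 0.49 on the transgenic arrays. With the Gapdh difference as a covariate, 0 members passed, but the median difference went from -0.01 to 0.13 and 24 of 29 genes were above 0. The change of Rpl22l1 minus Rpl22 turned from -0.15 to 0.064, that of Rps27l minus Rps27 went from 0.21 to 0.066 and that of Rpl39l minus Rpl39 from -0.25 to -0.026. The covariate separated the genotypes fully, so its effect and that of the transgene cannot be told apart.

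Sequence was compared over the windows of 300 bases (250 before and 50 after each start) that RefSeq gives for 33 of the 39 genes, 40 windows in all counting further starts. CTTTC within 50 bases of the start, on the strand of the gene, was in 16 of the 40, against 12.8% of all 32851 windows. CCGGAAG on either strand was in 27.5% and CCATNTT in 37.5% of the members' windows, against 8.86% and 16.1% of all. The windows of other ribosomal proteins also held these letters more often than all windows did. CTTTC was in 62.2% of those of the other cytosolic and 16% of those of the mitochondrial ribosomal proteins, CCGGAAG in 43.2% and 34.7%, and CCATNTT in 29.7% and 30.7%. TGACGTCA, the full cyclic AMP response element, was in 3 of the 40 (1.79% of all), and its part TGACG in 42.5% (20.8% of all, 43.2% and 41.3% of the windows of other cytosolic and mitochondrial ribosomal proteins). GTCA, the core of the element that DREAM binds, is so short that 85.2% of all windows hold it on either strand, as did 38 of the members' 40. It overlaps the full cyclic AMP element, which contains it. These are counts of letters, and a match is not a binding site.

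The rest of the cytosolic ribosome was measured less completely. Of 48 other ribosomal protein genes, 20 had a probe set of their own and 0 passed (limma; 0 at an unadjusted p under 0.05), with a median difference of -0.003 and a range from -0.47 to 0.11. Rpsa read -0.18 and Rps2 -0.15 (adjusted p = 0.795 and 0.873). Of 40 measured translation initiation, elongation and release factors, 0 passed and 1 had an unadjusted limma p under 0.05, and 24 were below 0 with a median of -0.02. The smallest p among them were those of the helicase Eif4a1, at -0.25, and of Eif5b, which joins the subunits, at -0.19 (adjusted p = 0.74 and 0.774).

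Among 51 measured genes of ribosome assembly, 1 passed, and it fell, where 0.617% of all genes passed. An unadjusted limma p under 0.05 was found in 4 of the 51, where 7.49% of all genes had one. Efl1 encodes the GTPase that, with the Shwachman-Diamond protein Sbds, frees new large subunits from Eif6. It read 9.03, 8.98 and 9.06 in wild type and 8.42, 8.44 and 8.44 in transgenic testis. The replicates lay close together in each genotype, with no overlap. Efl1 fell by 0.59 (SE 0.08, 1.51-fold, adjusted p = 0.0188). Its other probe set, at 3.47 ± 0.06 and 3.48 ± 0.08 (SD, n = 3), did not pass (0.01, adjusted p = 0.993). The call was lost when any array but wild type replicate 2 was left out, with adjusted p from 0.0562 (without wild type replicate 1) to 0.144 (without wild type replicate 3), while the difference stayed between -0.61 and -0.57. The call of Efl1 was also lost with the replicate number as a block (adjusted p = 0.111) and with the Gapdh covariate (-0.64, adjusted p = 0.321). The list as a whole had 26 genes below 0 and 25 above, with a median of -0.01.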

How the data were processed

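Total RNA was hybridised to 1 array per sample (6 arrays, 3 per genotype). The values are log2 intensities that the authors made with RMA and the affy package, per the submitters' processing notes, and deposited to 2 decimals; version, parameters and genome build are not given in the sources used here. Of 45101 probe sets, 64 controls were left out and 45037 tested. The platform annotation gave 34945 of these 1 gene, 932 several and 9160 none here, and 34754 matched the RefSeq table by gene ID, which updated the symbols. Promoter windows are RefSeq's. limma 3.58.1 in R 4.3.3 (lmFit, eBayes, two-sided, Benjamini-Hochberg over all probe sets tested) compared the genotypes. Pairs were compared by exact permutation in scipy 1.17.1. SDs are over 3 arrays, and permutation p-values rest on the spread between these samples. The SEs, intervals and p-values from limma use a variance moderated toward that of all probe sets tested, so they do not reflect that spread alone.

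The members, the 20 gene lists (12 of cell markers) and the tests were chosen with earlier results of these data known, so the lists got counts and medians and no test. Every measured member was named, and of each other list the called genes or the 2 of smallest p. The fit recovered known changes in simulated data, which were larger than any difference of the members here. The simulation therefore does not show how well changes of the members' size would be found. No array was a copy of another: at most 2.61% of values were identical between any pair.

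Alternatives changed the arrays (each left out in turn), the scaling (median centring, or quantile normalization repeated), the filter (the lowest 40% of probe sets dropped), the model (eBayes with a trend and robust prior, weights per array, a block for the replicate number, or Gapdh 3′ minus 5′ entered as covariate) and the probe sets (none of the _x_at, _s_at and _a_at types, or a mean over each gene).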

Additional observations from a re-analysis of the deposited data

How the results depend on the processing

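Under all 15 alternatives 0 of the measured member genes passed, the smallest adjusted p for any being 0.176, and the 3 changes of paralogue minus main gene were -0.20 to -0.11 for Rpl22l1, 0.10 to 0.28 for Rps27l and -0.36 to -0.18 for Rpl39l over the arrays left out. With the Gapdh covariate, applied to the pairs after seeing the data like the filter, trend, weights and block, the change of Rpl22l1 turned to 0.064, and those of Rps27l and Rpl39l were 0.066 and -0.026. With averaged probe sets Rpl22l1 gave -0.088 and Rps27l 0.13. The other alternatives kept the signs of the pairs. The exact permutation p was 0.1, the smallest possible with 3 arrays against 3, for Rpl22l1 after quantile normalization again (-0.15) and for Rps27l with averaged probe sets. Under those settings the other pairs had p of 0.2 to 0.4 in the same test. Pairs of Rpl3l and Rpl10l gave no value, nor did those of Rpl22l1 and Rps27l without the _x_at, _s_at and _a_at probe sets, since a probe set of the pair drops out. 0 to 1 member probe sets passed when 1 array was left out, and 1 with array weights, each time the dim probe set of Rps3. The number of member genes with an unadjusted limma p under 0.05, 1 in the main fit, was 4 with trend and robust eBayes (Rpl39, Rplp0, Rps15 and Rps27l). Under the other alternatives it was 0 to 2, with 0 when wild type replicate 2 was left out. The median difference of the member genes lay between -0.02 and 0.02 over the arrays left out. It was 0.13 with the Gapdh covariate, 0.067 without the probe sets that can match several transcripts (17 genes left) and 0.0425 with averaged probe sets. The count over all probe sets, 200, was 70 to 429 over the arrays left out (429 without wild type replicate 2), 306 with trend and robust eBayes, 1058 with array weights, 117 with the replicate number as a block and 18 with the Gapdh covariate. Whether the replicate numbers pair the samples is not known here. Same-numbered arrays deviated from their group means with correlations of -0.32, -0.07 and -0.01, and differently numbered ones with -0.19 to 0.25. Deviations within each group sum to 0, so these correlations cannot decide it. With the block 0 member genes passed, as in the main fit, and the call of Efl1 was lost.

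Differences of 20 genes, none past the threshold under any alternative, took the other sign at least once. With median centring Rpl27 read -0.02, and after quantile normalization again -0.013. With array weights Rpl6 read 0.028, Rpl8 0.0068, Rpl13a -0.012, Rpl27 -0.0124, Rps6 0.032 and Rps16 -0.11. With the Gapdh covariate Rpl3l read -0.43, Rpl6 0.054, Rpl7 0.13, Rpl11 0.073, Rpl22l1 0.26, Rpl39l 0.13, Rps3 0.092, Rps6 0.32, Rps9 0.084, Rps16 -0.077, Rps18 0.070, Rps20 0.025, Rps25 0.0733 and Rps27 0.075. Without the probe sets that can match several transcripts Rps3 read 0.30, Rps9 0.12, Rps18 0.13 and Rps20 0.067, from another probe set of each gene. With averaged probe sets Rpl7 read 0.023, Rpl22 -0.016, Rps3 0.28, Rps6 0.088 and Rps9 0.20. Over the arrays left out the ranges that crossed 0 were -0.02 to 0.13 for Rpl10a, -0.018 to 0.098 for Rpl13a, -0.025 to 0.11 for Rpl22, -0.20 to 0.0033 for Rpl22l1, -0.035 to 0.03 for Rpl27, -0.077 to 0.028 for Rpl39l, -0.0017 to 0.22 for Rpl3l, -0.04 to 0.045 for Rpl6, -0.065 to 0.015 for Rpl7, -0.025 to 0.01 for Rpl8, -0.033 to 0.087 for Rps14, -0.058 to 0.19 for Rps16, -0.06 to 0.02 for Rps20, -0.073 to 0.0067 for Rps27, -0.013 to 0.018 for Rps7 (0 over all arrays) and -0.13 to 0.087 for Rps6. The cause of these shifts was not tested, apart from the change of probe set. Without detection calls, the dim probe sets limit what can be said of Rpl3l, Rpl14, Rps6, Rps16 and Rps27.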

Other observations

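Mitochondrial ribosomal proteins, which serve the separate ribosome of that organelle, were nearly all measured (77 of 79 genes). Of them 0 passed (limma), 2 had an unadjusted p under 0.05, and 42 were above and 33 below 0, with a median difference of 0.01. Mrps5 averaged 7.82 in wild-type and 8.36 in transgenic samples (log2 difference 0.54, SE 0.15, limma adjusted p = 0.303), and Mrpl22 differed by -0.33 (SE 0.10, adjusted p = 0.39); neither passed.

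Copies of X-linked genes outside the ribosome are also expressed in male germ cells. Of the 6 measured (Pgk2, Pdha2, Cstf2t, Cetn1, Utp14b and Tktl2), 0 passed and 0 had an unadjusted limma p under 0.05, with a median difference of -0.01. Tktl2 read 0.22 and Utp14b -0.11 (adjusted p = 0.859 and 0.929). Their X-linked parents had a median of 0.07, again with 0 passing and 0 at an unadjusted limma p under 0.05, and Cetn2 read -0.22 and Pdha1 0.18 (adjusted p = 0.813 and 0.919).

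Of the cell marker lists, called genes were found only in the Leydig list, where 1 of 5 measured passed: Hsd3b1, at 1.48 (SE 0.13, limma adjusted p = 0.00109). Over all genes 0.617% passed. Of these 5 Leydig genes 4 were above and 1 below 0, with a median of 0.03 and a median size, sign aside, of 0.06. Among the other 11 lists 0 genes passed (limma), and in each the gene of smallest p is given beside the counts. Of 9 spermatogonial genes 5 were above and 4 below 0 (median 0.04; Zbtb16 0.17). Of 12 meiotic genes 1 were above and 11 below 0 (median -0.13; Meiob -0.58). Of 10 round spermatid genes 4 were above and 6 below 0 (median -0.03; Izumo1 -0.28). Of 10 elongating spermatid genes 6 were above and 3 below 0 (median 0.003; Spem1 0.21). Of 10 Sertoli genes 5 were above and 5 below 0 (median 0.003; Fshr 0.20). Of 5 peritubular genes 1 were above and 4 below 0 (median -0.09; Myh11 -0.33). Of 6 endothelial genes 5 were above and 1 below 0 (median 0.22; Tek 0.47). Of 5 macrophage genes 4 were above and 1 below 0 (median 0.13; Csf1r 0.28). Of 2 erythroid genes 1 were above and 1 below 0 (median 0.01; Hba-a1 0.06). Of 5 epididymal genes 4 were above and 1 below 0 (median 0.07; Rnase10 -0.60). Of 3 adipocyte genes 3 were above and 0 below 0 (median 0.20; Retn 0.20). Before adjustment, 3 of 12 meiotic, 3 of 6 endothelial and 2 of 5 Leydig genes had a limma p under 0.05, where 7.49% of all genes did. So did 1 of 10 round spermatid and 1 of 10 elongating spermatid genes, and 1 of 5 each in the peritubular, macrophage and epididymal lists.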
